A study of Clarias macrocephalus with 14 samples.

Results

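In a de novo transcriptome table from broadhead catfish fry, the transcripts assigned to each numeric Gene ID were counted whatever their read counts, and the 100 Gene IDs with the most transcripts were taken as the members described here, ties going to the smaller Gene ID number. The 100 members were 0.42% of the 23837 numeric Gene IDs, yet they held 25082 of the 172513 transcripts, or 14.5%. They had from 70 to 1912 transcripts each, with a median of 104.5, against a median of 4 over all numeric Gene IDs, of which 4870 had 1 transcript. Only 6 members had more than 1000 transcripts, 49 had 100 to 1000 and 45 had fewer than 100, and the first 10 held 45.1% of all member transcripts. Around the limit, Gene IDs 108265587 and 108270993 had 71 transcripts and 108256234 had 70, while 108256539 and 108259338, just outside, also had 70 and 108277551 had 69. The choice used no measured level, but the transcripts were assembled de novo, and whether their number is independent of the levels was not tested.

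A de novo assembler builds transcript contigs from overlapping reads without a genome. A gene can then appear as many contigs, among them splice forms, alleles, near-identical copies, repeats inside long transcripts, and fragments of a transcript that reads covered unevenly. In this table each Trinity gene, the assembler's finest group of contigs, had 1 row. The rows of a Gene ID, called transcripts here, are thus not splice forms grouped by the assembler. Reads that match several contigs are shared among them by an estimate, so the total of a group of related contigs can be firmer than the value of any 1 of them.

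RNA came from whole bodies of Clarias macrocephalus fry, sex not known, at 7 ages of early development: 3, 5, 13, 14, 16, 17 and 24 days post fertilization (dpf), called day 3 and so on. No treatment or genotype was labelled, and each age had 2 libraries from RNA depleted of ribosomal RNA. The labels do not say whether the pair of libraries came from separate fish or pools, so p-values measure the spread between these libraries, which may be technical. The table does not pair Gene IDs with names, so no member can be given a function here. In whole-body RNA, fewer cells of a type and less RNA per cell cannot be told apart.

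Library totals ran from 1460853 counts (day 24, replicate 2) to 8837320 (day 16, replicate 2). The highest transcript of the table, which belonged to no member, took 31.7 ± 1.53% of counts on day 17 (SD, n = 2) and 19.7 ± 1.88% on day 24, against 1.38 ± 0.06% on day 16. Shares of all counts therefore carry its level. Levels below are CPM, counts relative to a library total after TMM scaling, which sets the typical Gene ID level between libraries. The TMM factors of the Gene ID sums were 0.389 to 0.659 in the day 17 and day 24 libraries and 1.22 to 1.41 in the others. Neither scale corrects for transcript length. For many differences of Gene ID sums the value on library totals is given too. Where it is not, the direction may depend on the scale.

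The members together took between 8.71 and 20.9% of a library's counts. Their share was 13.4 and 13.5% in the libraries on day 3 and 8.84 and 8.71% on day 5. It was 9.47 and 10.5% on day 13, 19.6 and 19.9% on day 14, and 11.7 and 11.5% on day 16. It was 16.7 and 15.4% on day 17 and 20.9 and 20.4% on day 24. The libraries of days 14 and 24 were the highest and those of day 5 the lowest, and no library of an age overlapped with those of the next age. Of the counts outside the 20 highest transcripts of the table, the members took 21.8 and 22.1% in the libraries on day 14, 28.4 and 26.5% on day 17 and 31.2 and 29.1% on day 24, so that day 17 then lay above day 14. Among those 20 were 2 member transcripts, which were thus left out of the members' counts too.

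Most of that share belonged to 3 members that were far from first by transcript number. Gene ID 108266288 (343 transcripts, rank 20), 108266290 (297 transcripts, rank 22) and 804884 (101 transcripts) held between 70.4% (day 13) and 88.3% (day 24) of the members' counts. Gene IDs 108266288 and 108266290 were among the 3 Gene IDs with the largest shares of the whole table at every age. The other 97 members together took 3.13 ± 0.07% on day 3, 2.38 ± 0.06% on day 5, 2.95 ± 0.16% on day 13 and 2.85 ± 0.02% on day 14 (SD, n = 2). They took 2.49 ± 0.01% on day 16, 3.34 ± 0.00% on day 17 and 2.41 ± 0.41% on day 24. None of the 97 had a mean share above 0.262% at any age. Of the counts outside the 20 highest transcripts, the 97 took 2.79 ± 0.00% on day 16, 6.17 ± 0.06% on day 17 and 3.77 ± 0.51% on day 24. The rise of the summed share from day 13 to day 14 lay in 108266288 and 108266290, while the mean share of 804884 was 1.08 ± 0.19% on day 13 and 0.773 ± 0.04% on day 14.

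**Figure D1:**
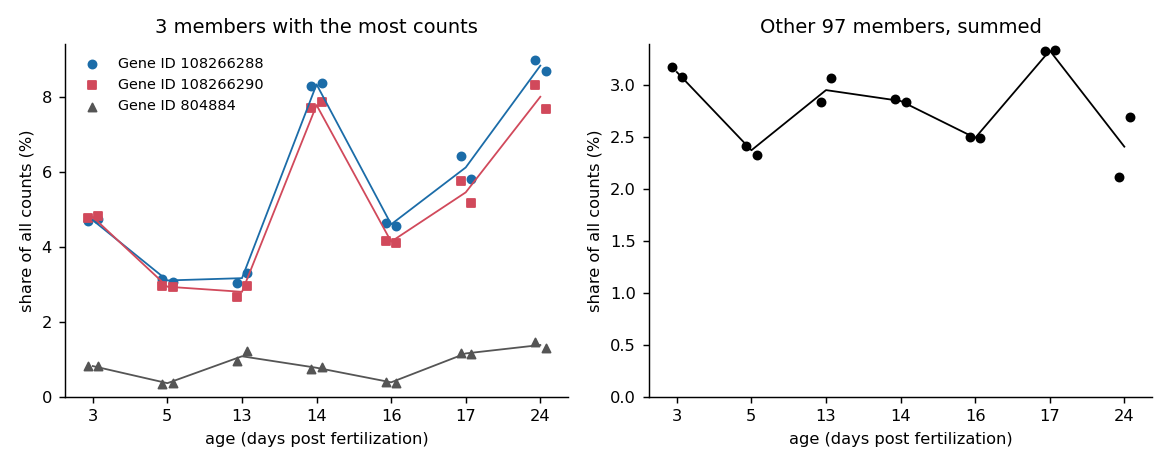
Share of all counts (%, vertical axes) at each age (dpf, evenly spaced, horizontal axes) for the 3 members with the most counts (left) and for the sum of the other 97 (right). Points are the 2 libraries of an age and lines join their means; the left panel reaches 8.97% and the right panel 3.34%.

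The 2 largest members moved together. The share of 108266288 was 3.03 and 3.29% in the day 13 libraries, 8.28 and 8.37% on day 14, 4.63 and 4.56% on day 16, and 8.97 and 8.68% on day 24. The share of 108266290 was 2.65 and 2.95% on day 13, 7.70 and 7.85% on day 14, 4.16 and 4.11% on day 16, and 8.31 and 7.68% on day 24. Their ratio stayed between 0.979 and 1.15 in the 14 libraries. They had transcripts in 40 of the same Trinity components, the assembler's groups of related contigs, so the counts of each could be split between them by the read assignment. On the TMM scale 108266288 was higher on day 24 than on day 3 by 2.44 ± 0.27 on the log2 scale (standard error; edgeR quasi-likelihood test, Benjamini-Hochberg adjusted p = 2.74e-07), and 0.91 higher on library totals. Gene ID 804884 took 0.345 and 0.381% on day 5, 0.403 and 0.369% on day 16, and 1.46 and 1.30% on day 24. It was low on days 5 and 16, which overlapped, and highest on day 24.

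Fewer of the members' transcripts than of other transcripts were seen on every day but day 17, and the ages followed a different order. Detection was set to an equal library total, as the number of transcripts expected to have a count if each library had the smallest total, 1460853. This leaves fewer counts for the remaining transcripts on days 17 and 24, where the highest transcript took more. Of the member transcripts, 26.2 ± 0.26% were then seen on day 3, 22.4 ± 0.38% on day 5, 25.5 ± 0.37% on day 13 and 29.9 ± 0.06% on day 14 (SD, n = 2). On day 16 26.1 ± 0.19% were seen, on day 17 31.2 ± 1.24%, and on day 24 14.5 ± 0.53%. Of all other transcripts, 42.4 ± 0.71% were seen on day 5, their highest age, 29.3 ± 2.45% on day 17 and 21.0 ± 0.09% on day 24. The members were thus lower on day 5 than on day 3, where the other transcripts were higher, and were highest by mean on day 17, close to day 14. With the counts outside the 20 highest transcripts set equal instead, members were seen at 26.8 ± 0.06% on day 14, 33.4 ± 1.35% on day 17 and 14.6 ± 0.37% on day 24, and other transcripts at 30.6 ± 2.59% on day 17 and 21.1 ± 0.07% on day 24. Day 24 was again the lowest, and day 17 then stood above day 14.

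**Figure D2:**
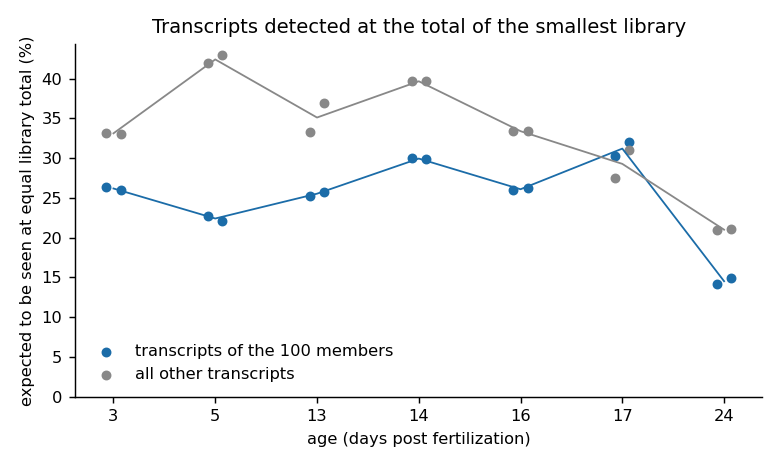
Percentage of transcripts expected to have at least 1 count at the total of the smallest library (vertical axis) at each age (dpf, evenly spaced). Blue points are the transcripts of the 100 members and grey points all other transcripts, 2 libraries an age, with lines through the means; the members reach 31.2% on day 17 and 14.5% on day 24.

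Without an equal total, and over both libraries of an age, 11654 member transcripts had at least 1 count on day 3, 12348 on day 5, 12306 on day 13, 15995 on day 14, 15287 on day 16, 15512 on day 17 and 6505 on day 24. Member by member, the largest part of the transcripts was seen on day 14 in 37 members and on day 17 in 36, and the smallest on day 24 in 82. Gene ID 100528917, the member with the most transcripts, departed from this. At the equal total 33.4% of its 1912 transcripts were seen on day 3, 16.7% on day 5 and 15.8% on day 24. Gene ID 110437730 (1024 transcripts) went from 14.1% on day 16 to 36.0% on day 17 and 9.29% on day 24.

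Member transcripts were mostly scarce. No count in any library was found for 1318 of them (5.25%, against 3.16% of all transcripts), 56.6% had fewer than 10 counts over the 14 libraries (all transcripts 47.8%), and the median total was 7 counts, against 11. All 7 ages had a count for 16.4% of member transcripts (all transcripts 23.1%), and 1 age alone for 19.8% (29.8%). Transcripts with at least 20 counts on day 5 and fewer than 3 at each other age were rare among members: 170, or 0.678%, against 4.60% of all transcripts. They lay in 36 members, with 29 in 108266288 and 20 in 108270173.

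Summed over its transcripts, every member passed the count filter and could be tested, and all 100 differed among the 7 ages (adjusted p under 0.05, edgeR), where 89.8% of the 18840 tested Gene IDs did. On the TMM scale many of the members' courses were low on day 5 and high on day 17. The lowest mean level was on day 5 for 61 members, against 14.0% of all tested Gene IDs. The highest was on day 17 for 61 members, against 15.5%, and on day 24 for 23, against 18.4%. On library totals the highest level was on day 17 for 31 members, against 2.89% of all tested Gene IDs, and on day 14 for 26, against 16.2%. The lowest was on day 5 for 24, against 4.09%, and on day 24 for 55, against 61.9%. On the TMM scale 61 members were both called lower on day 5 than on day 3 and called higher on day 17 than on day 16. That is 98.4% of the 62 called lower and 70.9% of the 86 called higher, where the same shares over all tested Gene IDs were 51.0% and 45.1%. Of all 100 members, 86% were called higher on day 17 and 62% lower on day 5, against 23% and 20.3% of tested Gene IDs. The gap in overlap therefore partly restates these call rates, and the overlap was not taken on library totals. The comparisons of day 5 against day 3 and day 17 against day 16 share no library.

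**Figure D3:**
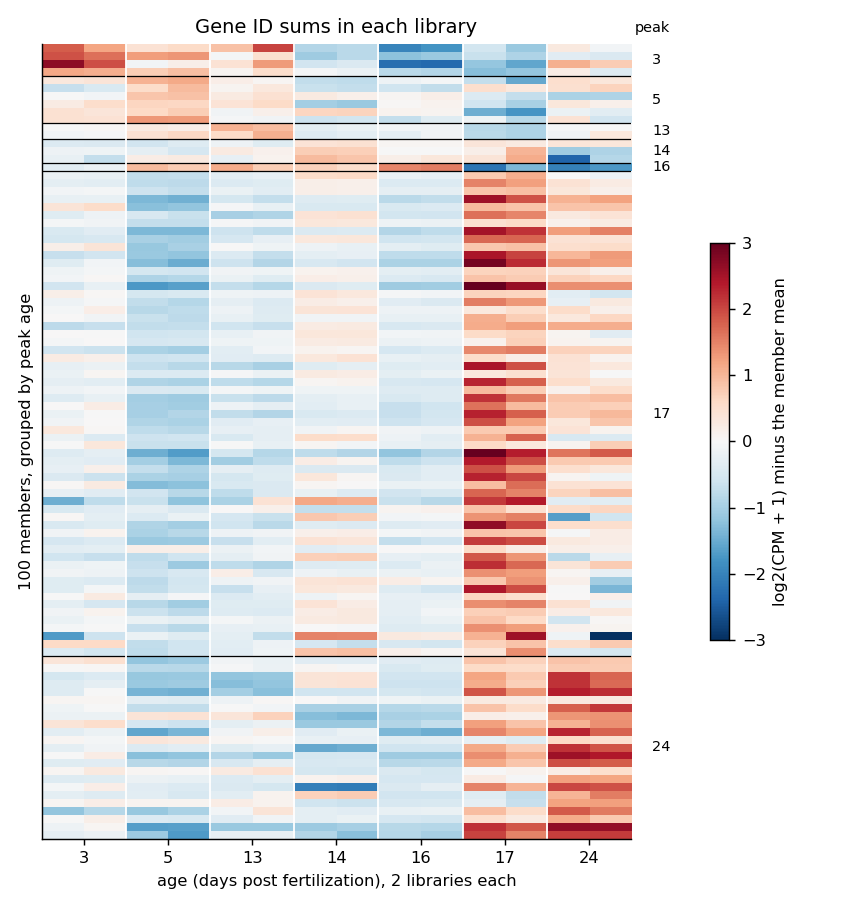
Level of the summed counts of each of the 100 members in each of the 14 libraries, as log2(CPM + 1) minus the member's mean (colour, capped at -3 and 3). Rows are members grouped by the age of their highest level, shown at the right, and columns are the 2 libraries of each age (dpf); 61 members have their highest level on day 17 on this TMM scale, and 31 on library totals.

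At day 5 against day 3 9 members were called higher and 62 lower (25% and 20.3% of tested Gene IDs), with a median log2 difference of -0.52 over members and 0.04 over all. At day 13 against day 5 51 were higher and 7 lower (24.9% and 28.7%), with medians of 0.38 and -0.03. Without day 5 replicate 2 the calls at this step fell from 58 to 37, those over all Gene IDs to 19.8% higher and 24.1% lower, and the members' median was 0.37. At day 14 against day 13 44 were higher and 20 lower (23.2% and 23.9%), with medians of 0.30 and 0.01; on library totals the split was 32 and 27 (17.8% and 29.0% of tested Gene IDs), and without the leading transcript of every Gene ID 26 and 19 (13.9% and 17.1%), so the members called lower were then near the share over all. At day 16 against day 14 7 were higher and 48 lower (17.5% and 15.5%), with medians of -0.38 and -0.00. The number of calls at this step fell when a library was left out, to 36 members without day 14 replicate 1, 35 without day 14 replicate 2, 29 without day 16 replicate 1 and 33 without day 16 replicate 2. Over all Gene IDs the calls then fell to between 10.6 and 12.2% higher and between 6.79 and 8.28% lower, and the members' median stayed between -0.39 and -0.34. Without the leading transcripts 6 members were called higher and 26 lower (13.3% and 14.1%), with a median of -0.23.

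At day 17 against day 16, a day apart, 86 members were called higher and 7 lower (23% and 23.3% of tested Gene IDs), with a median log2 difference of 1.25 over members and 0.00 over all. At least 4-fold higher levels were fitted for 27 members, against 3.14% of all tested Gene IDs. Some members share Trinity components, so the members called are not all separate cases. On library totals the call was smaller: 45 members were higher and 28 lower, when 3.84% of tested Gene IDs were higher and 67.1% lower, and the median log2 difference was 0.11 over members and -1.11 over all. Of the 86 members called higher, 45 were also higher on library totals and 14 were lower. On both scales the members' median lay above that of all Gene IDs. Without the 20 highest transcripts of the table, the share of counts was higher on day 17, with no overlap of libraries, for 77 members and lower for 12 (21.4% and 52.9% of tested Gene IDs).

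At day 24 against day 17 25 members were higher and 49 lower (13.5% and 11.7% of tested Gene IDs), with medians of -0.41 over members and -0.09 over all; on library totals the split was 18 and 64 (5.68% and 23.2%). Over the whole span, day 24 against day 3, 50 were higher and 10 lower (16.7% and 15.4%), with medians of 0.49 and -0.13. This direction turned on library totals, where 14 were higher and 71 lower, against 1.93% and 71.3% of tested Gene IDs, and the medians were -1.03 over members and -1.65 over all Gene IDs. The members called lower were thus at the share over all, and those called higher above it. Of the 50 called higher, 14 were higher on both scales and 23 were lower on library totals.

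**Figure D4:**
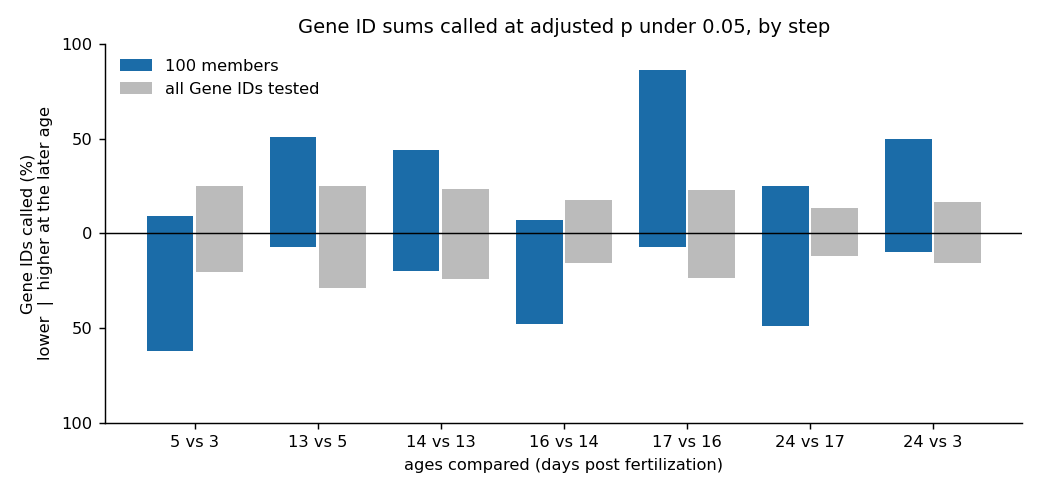
Percentage of Gene ID sums called at an adjusted p under 0.05 (edgeR, TMM scale) in each comparison of ages (dpf); bars above 0 are higher at the later age and bars below 0 lower. Blue bars are the 100 members and grey bars all tested Gene IDs; at day 17 against day 16 86% of members were higher, against 23%.

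On the TMM scale the share called higher at day 17 against day 16 was larger for Gene IDs with more transcripts. It was 15.0% of tested Gene IDs with 1 transcript, 20.9% with 2 to 9, 31.9% with 10 to 69, and 86% of the members. At day 5 against day 3 the share called lower was 16.3%, 20.3%, 22.0% and 62% in the same order. The share called higher there was 17.1%, 23.4%, 32.6% and 9%, and the median log2 difference -0.01, 0.04, 0.09 and -0.52. By the share called higher and the median, the members thus did not continue a trend over the other groups at that step. The share called lower rose through the groups up to the members. The summed level of a Gene ID with more transcripts also rests on more counts, and the part of that in the number of calls was not tested. The median log2 difference at day 17 against day 16 was -0.05, -0.01, 0.12 and 1.25 in the same order. On library totals the median over all Gene IDs was -1.11, and these groups were not compared on that scale.

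All of the 10 members with the most transcripts were called higher on day 17 than on day 16 on the TMM scale. Gene ID 100528917 had 656 and 630 CPM on day 16, 1503 and 1335 CPM on day 17, and 365 and 387 CPM on day 5, its lowest age. Its libraries on day 17 lay above both on day 16, a log2 difference of 1.14 ± 0.15 (standard error; edgeR adjusted p = 2.28e-06), which was 0.00 on library totals. Gene ID 108264080 had 848 and 864 CPM on day 5, 2102 and 2141 CPM on day 14, 1253 and 1203 CPM on day 16, and 2443 and 3052 CPM on day 17. It had separate maxima on days 14 and 17 on the TMM scale, where day 17 was higher than day 16 by 1.16 on the log2 scale. On library totals that difference was 0.04, and its highest share was 0.259 and 0.260% on day 14, with both day 17 libraries below it. Gene ID 108273231 had 766 and 768 CPM on day 16 and 2836 and 2381 CPM on day 17. It was higher by 1.77 ± 0.16 on the log2 scale (edgeR adjusted p = 1.06e-08) and by 0.62 on library totals.

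Gene ID 108265182 changed more, with 354 and 385 CPM on day 16, 3689 and 2938 CPM on day 17, and 1552 and 1856 CPM on day 24. The groups did not overlap, the log2 difference of day 17 against day 16 was 3.17 ± 0.18 (edgeR adjusted p = 8.90e-12), and it was 2.02 on library totals. Gene ID 110437730 had 177 and 186 CPM on day 16 and 1826 and 1171 CPM on day 17. Its log2 difference was 3.04 ± 0.18 (edgeR adjusted p = 2.85e-11). Gene ID 103908774 changed least of the 10, from 509 and 500 CPM to 793 and 844 CPM. Its log2 difference was 0.70 ± 0.14 (edgeR adjusted p = 0.000324) and turned to -0.43 on library totals. Gene IDs 108257840, 108278261, 108267251 and 108267243 were higher by 1.14, 1.33, 2.12 and 2.32 on the log2 scale, and on library totals by 0.01, 0.19, 0.98 and 1.18. Among these 10, pairs shared Trinity components: 100528917 and 108278261 shared 79, and 108267243 and 108267251 shared 49. Gene ID 110437730 shared 45 with 108267251 and 43 with 108265182. The counts of such pairs could be split between them by the read assignment, so their differences are not separate observations.

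Of the 50 members called higher on day 24 than on day 3, the largest difference was in 108267957 (75 transcripts). It had 63.5 and 80.0 CPM on day 3, 65.9 and 74.3 CPM on day 5, 277 and 212 CPM on day 17, and 521 and 430 CPM on day 24. On the TMM scale both libraries on day 24 were above all others, by 2.73 ± 0.19 on the log2 scale over day 3 (edgeR adjusted p = 5.57e-10) and by 1.20 on library totals. Its share of all counts was 0.0184 and 0.0266% on day 13 and 0.0202 and 0.0215% on day 24, which overlapped. Gene ID 108263060 (73 transcripts) followed, with 849 and 973 CPM on day 3, 529 and 516 CPM on day 16, 4323 and 3446 CPM on day 17, and 5934 and 5867 CPM on day 24. It was low up to day 16 and high on days 17 and 24, by 2.70 ± 0.18 over day 3 (edgeR adjusted p = 2.89e-10) and by 1.18 on library totals.

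Of the 10 called lower, the largest difference was in 108266280 (118 transcripts), with 402 and 335 CPM on day 3, 252 and 266 CPM on day 5, 44.3 and 48.1 CPM on day 16, and 83.4 and 78.0 CPM on day 24. Its level fell at each step up to day 14, and the log2 difference of day 24 against day 3 was -2.19 ± 0.20 (edgeR adjusted p = 2.12e-08). Its share of all counts was 0.0059 and 0.0064% on day 16 and 0.0032 and 0.0039% on day 24, the opposite direction to its CPM. Gene ID 108256530 (73 transcripts) had 208 and 218 CPM on day 16, 15.4 and 28.5 CPM on day 17, and 17.5 and 21.9 CPM on day 24. It was 1 of the 7 members called lower on day 17 than on day 16, by -3.27 ± 0.21 on the log2 scale (edgeR adjusted p = 5.98e-11), and was lower on library totals too.

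Transcripts of 1 Gene ID were then tested singly. The count filter kept 3198 of the 25082 member transcripts (12.8%, against 25.2% of all), so most are not part of what follows. A transcript could pass the filter by its counts in the 2 libraries of 1 age. Directions of calls and peak ages thus rest in part on transcripts kept for the age where they are high. That part was not tested. The kept transcripts held most member counts. On day 17 untested transcripts took 0.701 ± 0.04% of all counts and tested ones 15.4 ± 0.91% (SD, n = 2). In the 97 members with smaller shares, untested ones took 0.698 ± 0.04% and tested ones 2.64 ± 0.03%. Of the 3198, 2584 differed among the 7 ages (80.8%, against 83% of tested transcripts; edgeR, adjusted p under 0.05). At day 17 against day 16 1485 were higher and 84 lower (15.3% and 15.8% of tested transcripts). At day 16 against day 14 115 were higher and 785 lower (13.8% and 12.7%), and at day 5 against day 3 254 were higher and 619 lower (27% and 11.6%).

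Within most members the tested transcripts did not share a fold change. Of the 99 members with at least 2 tested transcripts, 71 had unequal change at day 5 against day 3 (43.6% of the 8849 Gene IDs tested), 77 at day 13 against day 5 (47%) and 75 at day 14 against day 13 (25.3%), by the gene-level F test of edgeR's diffSpliceDGE with adjusted p under 0.05. The count was 73 at day 16 against day 14 (31.5%), or 48 without day 14 replicate 1, 69 at day 17 against day 16 (14.6%), 52 at day 24 against day 17 (3.89%) and 61 at day 24 against day 3 (9.61%), or 38 by Simes' test. Members have more tested transcripts than most Gene IDs. Among those with at least 10, which were 74 members and 303 Gene IDs with the members included, the shares were closer. Unequal change was called in 82.4% of members at day 5 against day 3 (79.5% of the 303), 82.4% at day 13 against day 5 (82.5%) and 85.1% at day 16 against day 14 (82.8%). It was called in 86.5% at day 14 against day 13 (71.9%), 74.3% at day 17 against day 16 (54.1%), 63.5% at day 24 against day 17 (29.7%) and 74.3% at day 24 against day 3 (52.1%).

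Calls of transcripts within a member often had opposite directions. At day 13 against day 5, 63 of the 83 members with at least 2 called transcripts had calls in both directions, and at day 5 against day 3 50 of 72. Among Gene IDs with at least 10 tested and at least 2 called transcripts, calls in both directions were found at day 13 against day 5 in 55 of 68 members, or 80.9%, against 70.5% of 268 Gene IDs, members included. At day 5 against day 3 they were found in 46 of 65, or 70.8%, against 54.3% of 258, and at day 16 against day 14 in 35 of 63, or 55.6%, against 55.4% of 249. At day 17 against day 16, where most sums were higher, 48 of 84 members had only higher calls, 4 only lower calls and 32 both. With at least 10 tested transcripts both directions were found there in 29 of 69 members, or 42.0%, against 30.3% of 231 Gene IDs. Of the 86 members with a higher sum, 29 had a transcript called lower. That count was not taken over all Gene IDs, most of which have fewer tested transcripts.

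Gene ID 100528917 shows this. Its leading transcript, with 8.23% of the member's counts, had 43.8 and 43.9 CPM on day 16 and 207 and 138 CPM on day 17, higher by 1.98 on the log2 scale (edgeR adjusted p = 3.86e-08). Another, with 2.75% of the counts, had 29.6 and 26.1 CPM on day 16 and 4.58 and 5.12 CPM on day 17, a log2 difference of -2.51 (edgeR adjusted p = 5.96e-07). The libraries of these ages did not overlap for either transcript, and the pair moved apart. In 108267251 a transcript went from 190 and 298 CPM on day 3 to 3.47 and 9.31 CPM on day 24, while another went from 11.0 and 10.1 CPM to 132 and 122 CPM. The sum of that Gene ID was higher by 0.61 ± 0.16 on the log2 scale (edgeR adjusted p = 0.0058) and its difference was -0.89 on library totals. Gene ID 103908774 had 15 transcripts called higher and 6 called lower at day 17 against day 16.

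The likeness of courses was also measured as Pearson's r between the mean log2 CPM of 2 transcripts over the 7 ages, as a description, since all values share the same libraries. The median r within a member was 0.27 over the 74 members with at least 10 tested transcripts, with single members from -0.25 to 0.85, and 0.44 for transcripts with a mean of at least 5 CPM. It was 0.37 over the 229 other Gene IDs with as many. Between transcripts of different members the median was 0.0948, and in 66 of the 74 the value within the member was above the value to other members. With all members pooled, a transcript's course over replicate 1 against its own over replicate 2 had a median r of 0.83. Against another transcript of its Gene ID it was 0.39. As medians over the 74 members these values were 0.82 and 0.21. Also pooled, the 458 pairs of 1 Trinity component had a median r of 0.92, against 0.45 for the 143915 pairs of different components. Of the 74 members 19 had a median r above 0.5 and 33 below 0.2.

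The members with the highest r were 108266290 (0.85 over 199 tested transcripts), 108275422 (0.84 over 21) and 100149980 (0.84 over 36). In 108266290, 151 transcripts were called higher and 0 lower at day 17 against day 16 (15.3% and 15.8% of tested transcripts). At day 24 against day 3 158 were higher and 0 lower (9.89% and 11.6%), though at day 5 against day 3 12 were higher and 99 lower (27% and 11.6%). These calls are on the TMM scale. The sum of 108266290 was higher on day 17 than on day 16 by 1.55 on the log2 scale and by 0.40 on library totals. For day 24 against day 3 these differences were 2.28 and 0.74. Gene ID 100149980 had 63.1 and 63.8 CPM on day 16, 1285 and 817 CPM on day 17, and 350 and 346 CPM on day 24. Of its 36 tested transcripts 35 were called higher on day 17, and its sum had the largest fitted difference of any member at that step, 4.05 ± 0.19 on the log2 scale (edgeR adjusted p = 1.65e-12), which was 2.89 on library totals. Gene ID 108275422 had 40.3 and 50.1 CPM on day 16 and 788 and 476 CPM on day 17, with 20 of 21 transcripts called higher. These 2 members are not separate from others named above. Gene ID 100149980 shared 40 Trinity components with 110437730 and 30 with 108265182, and 108275422 shared 33 with 110437730.

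The lowest r were in 108270173 (-0.25 over 23 tested transcripts), 108263093 (-0.10 over 22) and 108271767 (-0.10 over 10). In 108270173, 13 of the 23 were among those seen on day 5 alone, which could pass the count filter by that age only. The sum of 108270173 had 98.3 and 116 CPM on day 3, 232 and 309 CPM on day 5 and 99.5 and 96.5 CPM on day 14. In 108271767, 7 of 10 were of that kind. Its sum nevertheless was lower on day 5 than on day 3, with 298 and 357 CPM on day 3, 245 and 234 CPM on day 5, 74.6 and 71.0 CPM on day 14, and 1247 and 1169 CPM on day 24. A single transcript held 49.4% of its counts. Gene ID 108263093 had 2 such transcripts, and its called transcripts had their highest level on day 14 in 8 cases and on day 24 in 6.

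**Figure D5:**
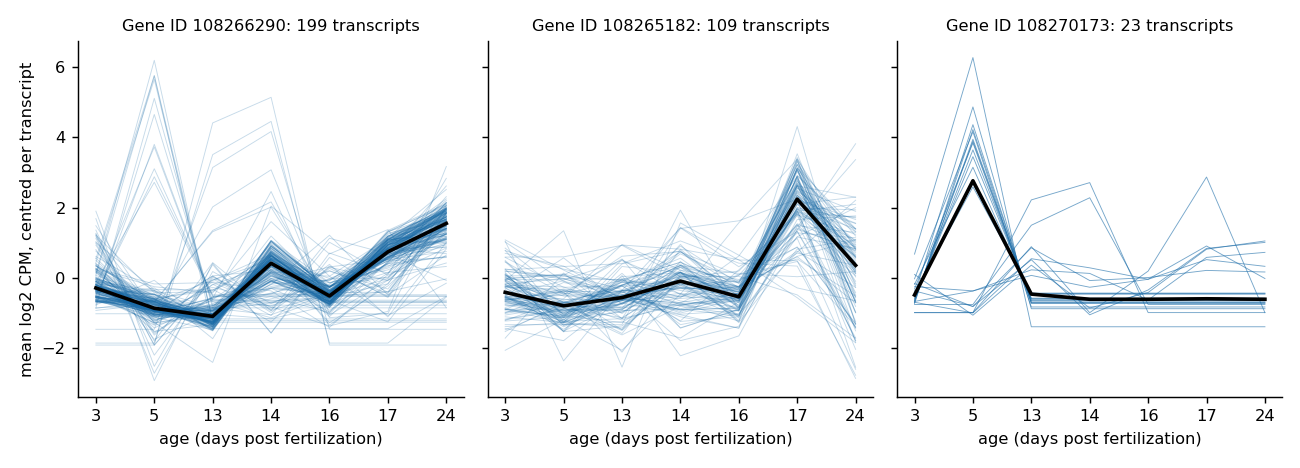
Mean log2 CPM of each tested transcript at each age (dpf, evenly spaced), minus the transcript's mean over ages, for a member with a high median r (108266290), 1 of the 10 members with the most transcripts (108265182) and the member with the lowest median r (108270173). Thin lines are transcripts and the thick line is their median; the median r is 0.85, 0.71 and -0.25.

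By age of highest level, 1450 of the 2584 called member transcripts (56.1%) peaked where the sum of their Gene ID did. Each transcript is part of that sum, so some agreement is built in, more where 1 transcript holds most of the counts. The share was 63.7% for called transcripts of other Gene IDs with at least 2 transcripts. Of the numeric ones, 14623 had 2 to 9 transcripts and 4242 had 10 to 69, and the part of this in the difference was not tested. Of called member transcripts 37.7% peaked on day 17 and 26.2% on day 24, against 12.5% and 14.4% of all called transcripts, and 8.20% peaked on day 5, against 29.2%. Transcripts could pass the count filter by their peak age alone, so these shares describe the kept transcripts only. Of the 678 that peaked on day 24, 160 belonged to 108266290 and 165 to 108266288. The sums of both peaked on that day too on the TMM scale. The day 24 share thus rests in large part on these members, as does part of the 1450. The 64 members with at least 10 called transcripts had peaks at a median of 5 different ages. In 8 of them all 7 ages occurred, and in 34 at least 5. In 100528917, 34 of the 82 called transcripts peaked on day 24, 14 on day 17, 14 on day 3 and 1 on day 5. In 108265182, 87 peaked on day 17 and 0 on days 3 or 5.

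Few transcripts held most of a member's counts. The leading transcript held a median of 19.5% of a member's counts, from 3.14 to 82.7%, and more than 50% in 16 members. A median of 30.5 transcripts, or 25.6%, held 90% of the counts. The same transcript led at all 7 ages in 32 members, while in 37 at least 3 different transcripts led at some age. In 108264080 the leading transcript held 12.5% of the counts and was the same at every age, and in 110437730 5 transcripts led in turn, the first of them with 3.38% overall.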

How the data were processed

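Whole-fry RNA of 7 ages, 2 libraries each, was depleted of ribosomal RNA and made into NEBNext Ultra libraries, per the labels' protocols. The authors deposited a table of expected counts with 1 row per Trinity gene, labelled with a Trinity transcript and a Gene ID. In it 2.24 to 5.56% of a library's values were fractional. Tools listed in the submitters' processing notes, with no role or order, are DESeq2, RSEM, Trimmomatic 0.36, FastQC and CASAVA 1.9.1. The rule that gave transcripts their Gene IDs was not given in the labels. The members and all lists were chosen with earlier results of these data known.

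Counts per Gene ID (summed) and per transcript were rounded and fitted by edgeR 4.0.16 under R 4.3.3: filterByExpr with a minimum count of 10, TMM, quasi-likelihood F tests, age as the only term, all 14 libraries. Adjusted p-values are Benjamini-Hochberg over everything tested in a comparison, with 0.05 as the threshold. A standard error is the absolute log2 difference over the square root of F. Unequal change among the rows of a Gene ID was tested with diffSpliceDGE, which here is not a test of splicing. Courses used a prior count of 2. The steps were tested on simulated counts. By mean, replicates differed by more than sampling noise (mean chi-square 1.35 to 18.2 per Gene ID with at least 50 counts), so none was treated as a duplicate. The median chi-square was 0.553 on day 14, 0.577 on day 16 and 2.42 on day 24, where the means were 1.35, 1.36 and 18.2. A chi-square has a median below its mean under sampling noise alone. How far the means rest on a part of the Gene IDs was therefore not settled.

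Named members are the 10 with the most transcripts, the largest share at each age, the 2 highest and 2 lowest called differences at day 24 against day 3 without overlap of libraries and with at least 10 CPM, and the 3 highest and lowest by median r. Gene ID 804884 and single transcripts shown as examples were picked after their values were seen. Lists of genes by name could not be applied without names. Alternatives were DESeq2 1.42.0, limma-voom 3.58.1, other scalings and filters, left-out libraries or transcripts, a replicate block, and other numbers of members.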

Additional observations from a re-analysis of the deposited data

How the results depend on the processing

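Over 701 results under alternatives, 618 kept their side or stayed within 1.5 times or 1 SD. Some of these could not leave the limits, as given below for left-out libraries. The split of called members at day 24 against day 3 turned on library totals, from 83.3% higher to 16.5%; the move of a Gene ID's log2 difference had a median of -1.52 over all Gene IDs there and -1.14 at day 17 against day 16. The library totals were added after seeing the data, as were the results without leading transcripts and without the 3 largest members, and detection at equal counts outside the 20 highest transcripts. Upper-quartile scaling moved it by a median of 0.12 at day 17 against day 16 and of -0.16 at day 24 against day 17.

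Member transcripts called rose to 4704 with no low-count filter, where the share over all transcripts is not given. Members called at day 16 against day 14 fell from 55 to 32 without leading transcripts. Of all tested Gene IDs 13.3% were then higher and 14.1% lower. Members with unequal change at day 24 against day 3 fell from 61 to 38 with Simes' test. The median r rose to 0.44 for transcripts of at least 5 CPM. In these the cause was not tested.

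The summed share on days 3, 5, 13, 14, 16, 17 and 24 was 11.3, 7.11, 7.54, 17.9, 10.1, 13.8 and 17.9% with 50 members, and 16.3, 11.3, 12.6, 22.7, 14.2, 18.5 and 23.4% with 200. Without the 20 highest transcripts it was 14.8, 9.35, 21.9, 12.4, 27.4 and 30.1% on days 3, 5, 14, 16, 17 and 24. Without the 3 largest members it was 3.13, 2.38, 2.95, 2.85, 2.49, 3.34 and 2.41%. It was 13.5% on day 3 of counts under numeric Gene IDs, and 9.27% on day 5 without transcripts seen on that day alone.

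Detection with 50 members was 26.9, 21.9, 26.9 and 32.9% on days 3, 5, 16 and 17, and with 200 members 26.4, 24.1, 26.3, 30.8 and 29.9% on days 3, 5, 13, 14 and 17. At equal counts outside the 20 highest transcripts it was 23.8, 19.5, 22.5, 26.8, 22.7 and 33.4% on days 3, 5, 13, 14, 16 and 17. At full depth with at least 1 count per library it was 36.2, 39.3, 38.1, 51.2, 50.2, 47.2 and 18.6% over the 7 ages. Over both libraries it was 46.5, 49.2, 49.1, 63.8, 60.9, 61.8 and 25.9% for at least 1 count, 25.1, 28.5, 27.4, 37.2, 38.9, 34.4 and 11.2% for 3, and 17.1, 20.4, 19.4, 27.5, 29.4, 22.2 and 7.39% for 5. Day 24 was lowest under each of these, while the highest day was 14, 16 or 17 by rule.

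With each library left out in turn, 372 of 378 results stayed within these limits. The shares and detection at an age could not leave them, since each library of a pair lies within their SD of the mean. Many of the other results came from comparisons of ages to which the left-out library did not belong. The 372 is therefore not a measure of how stable the results are. In the order of the steps, members called ranged from 51 to 74, 37 to 67, 46 to 70, 29 to 60, 88 to 94 and 65 to 74, and from 48 to 61 at day 24 against day 3. Members with unequal change ranged from 64 to 77, 66 to 82, 51 to 81, 48 to 77, 54 to 75, 37 to 53 and 41 to 64. Calls over all Gene IDs with a library left out are given above for day 13 against day 5 and day 16 against day 14. For the other comparisons and for unequal change they are not given, so those ranges do not set members against all Gene IDs.

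Same-numbered libraries of different ages deviated from their age means with r of -0.07 to 0.05 over 21 pairs of ages, so no shared deviation was seen. With 2 libraries an age this cannot show whether the numbers pair the samples. With a replicate block 2403 member transcripts and 100 members were called over the ages, and 71, 58, 64, 54, 93, 73 and 57 members in the comparisons, with unequal change in 72, 73, 74, 70, 71, 53 and 59; it moved no count by over 1.5 times. Of all tested Gene IDs, 24.5% were higher and 19.8% lower with that block at day 5 against day 3. At day 17 against day 16 these shares were 22.4% and 23.0%. They were 24.3% and 28.3% at day 13 against day 5, 22.7% and 23.4% at day 14 against day 13, and 17.1% and 14.8% at day 16 against day 14. At day 24 they were 13.0% and 11.0% against day 17, and 16.4% and 15.0% against day 3. For unequal change with that block the shares over all Gene IDs are not given. With 2 libraries an age, the spread rests on all ages together, and the smallest library sets the depth at which scarce transcripts can be seen.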

Other observations

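Gene IDs written as a mix of letters and digits were outside the choice of members. Of these, 10 also had at least 70 transcripts, 3309 in all, a comparison made after the members' values were seen. On the TMM scale 7 of them were called higher and 0 lower at day 17 against day 16 (edgeR, adjusted p under 0.05). Over all tested Gene IDs these shares were 23% and 23.3%. At day 5 against day 3 0 were higher and 7 lower (25% and 20.3% of tested Gene IDs). At day 16 against day 14 0 were higher and 9 lower (17.5% and 15.5%). Their median log2 difference at day 17 against day 16 was 0.79, from 0.21 to 1.70. Their summed share of all counts was 0.297 ± 0.00% on day 14, 0.239 ± 0.00% on day 16, 0.202 ± 0.02% on day 17 and 0.117 ± 0.02% on day 24 (SD, n = 2), so it did not rise on day 17.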
